A study of Mus musculus with 12 samples.

Results

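The kinetochore and spindle checkpoint genes were measured in the germ line and the soma of the E13.5 mouse gonad, in both sexes. Primordial germ cells (PGCs) later give rise to oocytes and sperm. The set held 42 of the 12845 genes in the deposited tables. It was chosen by symbol, with earlier results of these data known: 18 genes named Cenp followed by letters, and 24 named genes of the outer kinetochore, the checkpoint, the Aurora and Polo kinases, the chromosomal passenger complex and the shugoshins, with the proliferation antigen Mki67. All 42 genes were present in both tables. The centromere genes Apitd1 and Stra13, now called Cenps and Cenpx, are listed under their earlier symbols and were not matched. Cenpc1 was not matched either, because its symbol ends in a digit, and it is given beside the set.

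Gonads came from embryos of females mated to Oct4GFP males (strain Oct4GFPxICR), so all groups come from the same reporter cross, in which green fluorescent protein marks germ cells. Sorting by fluorescence separated PGCs (GFP+) from soma (GFP-), giving 4 groups of 3 libraries: female PGC, male PGC, female soma and male soma. The soma is whatever the gonad held apart from GFP-positive cells, so it is a mixture. A fixed volume of spike-in RNA went into each lysate per 10000 cells, and expression was deposited both per cell and normalized to read depth. The labels do not say whether replicates came from separate litters or pools, so p-values measure the spread between these libraries, which may be technical.

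The kinetochore is the protein plate that each centromere carries during division. Nucleosomes with the histone variant CENP-A mark the centromere, the inner (CENP-named) proteins bind them, and the outer KMN network (KNL1, the MIS12 complex and the NDC80 complex) grips spindle microtubules. Kinetochores without microtubules activate the spindle checkpoint: the kinase TTK (also called MPS1) recruits BUB1 with BUB3, and MAD1 loads MAD2, which together with BUBR1 (the product of Bub1b) and BUB3 holds back the anaphase promoting complex. Aurora B, with its partners INCENP and survivin, releases faulty attachments, and shugoshins protect centromeric cohesin. In mice, germ cells of the fetal ovary begin meiosis around this stage while those of the fetal testis stop dividing, so the same genes serve mitosis and meiosis in neighbouring cell populations.

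Libraries held 6454322 to 24791414 reads, recovered as whole numbers from the per cell table, and CPM below are shares of those reads. Outside Aurkc, every member had at least 39 reads in every library. The labels held: 6 germ cell markers summed to 3002 to 3189 CPM in female PGCs and 4060 to 4339 CPM in male PGCs, against 15.8 to 149.7 CPM in female soma and 10.1 to 16.8 CPM in male soma. Female soma replicates 1 and 2 held 2.89% and 4.82% of the female PGC level of those markers, and replicate 3 held 0.507%. All 6 erythroid markers were measured and summed to 2.91 to 5.89 CPM in female PGCs (Hbb-bh1 had no read there) and 4.30 to 9.94 CPM in male PGCs, against 17590 to 29540 CPM in female soma and 3383 to 8578 CPM in male soma. Macrophage markers (4 of 5 measured) summed to 1.48 to 4.18 CPM in female PGCs and 1.58 to 2.29 CPM in male PGCs, against 138 to 219 CPM in female soma and 64.4 to 95.2 CPM in male soma. Endothelial markers (4 of 5 measured) summed to 1.88 to 3.41 CPM in female PGCs and 3.05 to 6.02 CPM in male PGCs, against 99.3 to 133 CPM in female soma and 81.3 to 135.5 CPM in male soma. These other cells move with the soma groups, and their part in the differences between PGCs and soma was not tested. In such bulk samples, fewer cells of a type and less RNA per cell cannot be told apart.

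Many genes of division carry a CHR element (cell cycle genes homology region) with CCAAT boxes near the start of transcription, through which the DREAM complex represses them in resting cells and MYB- and FOXM1-containing complexes activate them before mitosis. Promoters were taken from RefSeq (GRCm38.p6) as 250 bases before to 50 after the annotated start, and 38 of the 42 members had an entry. The letters TTTGAA were found on either strand in 14 of the 38 members (36.84%), against 17.89% of all 32851 promoters. CCAAT was found in 25 of the 38 (65.79%), against 37.41% of all promoters, and both in 12 of the 38 (31.58%), against 6.953%. A member counted if any of its promoters matched, whereas the background is per promoter. Per promoter, TTTGAA was found in 34.88% of the 43 member promoters, CCAAT in 67.44% and both in 30.23%. The 4 promoters below are those of the members with TTTGAA that differed most between PGCs and soma or between the sexes. They lie at chr1:189688037-189688336, minus strand (Cenpf), chr9:83834439-83834738, plus strand (Ttk), chr7:131560120-131560419, plus strand (Bub3) and chr10:30200491-30200790, minus strand (Cenpw). Each is written 5′ to 3′ along its gene, with TTTGAA (or its reverse complement TTCAAA) and CCAAT in capitals.
Cenpf: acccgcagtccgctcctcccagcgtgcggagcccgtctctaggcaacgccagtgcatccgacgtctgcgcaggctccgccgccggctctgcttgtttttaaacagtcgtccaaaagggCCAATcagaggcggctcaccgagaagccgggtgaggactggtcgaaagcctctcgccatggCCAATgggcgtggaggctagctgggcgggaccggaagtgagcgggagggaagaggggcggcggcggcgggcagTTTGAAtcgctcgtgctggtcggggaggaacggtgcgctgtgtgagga
Ttk: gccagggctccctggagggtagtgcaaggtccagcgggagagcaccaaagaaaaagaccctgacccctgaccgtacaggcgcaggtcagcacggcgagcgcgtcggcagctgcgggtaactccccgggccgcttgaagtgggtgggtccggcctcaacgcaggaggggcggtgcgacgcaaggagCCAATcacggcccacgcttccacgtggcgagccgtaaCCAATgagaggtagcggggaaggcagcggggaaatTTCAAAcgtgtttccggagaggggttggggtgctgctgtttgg
Bub3: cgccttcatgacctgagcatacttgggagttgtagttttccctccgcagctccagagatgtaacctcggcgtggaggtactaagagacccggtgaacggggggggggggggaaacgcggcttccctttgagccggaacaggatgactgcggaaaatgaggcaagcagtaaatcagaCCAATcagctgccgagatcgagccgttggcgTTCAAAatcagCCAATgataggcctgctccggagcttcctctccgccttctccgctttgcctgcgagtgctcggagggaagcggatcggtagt
Cenpw: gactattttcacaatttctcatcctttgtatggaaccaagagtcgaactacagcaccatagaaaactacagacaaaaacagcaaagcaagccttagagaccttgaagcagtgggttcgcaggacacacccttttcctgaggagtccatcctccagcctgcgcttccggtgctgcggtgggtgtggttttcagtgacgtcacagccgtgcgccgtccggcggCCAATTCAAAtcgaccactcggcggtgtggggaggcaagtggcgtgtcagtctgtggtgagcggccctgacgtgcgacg
Cenpf has TTTGAA on its own strand, and Ttk, Bub3 and Cenpw have it on the other strand. Cenpf, Ttk and Bub3 each have 2 CCAAT boxes upstream of the start, while in Cenpw a CCAAT box shares 1 base with TTCAAA. A match of letters is a description of these windows, not evidence of binding.

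**Figure D1:**
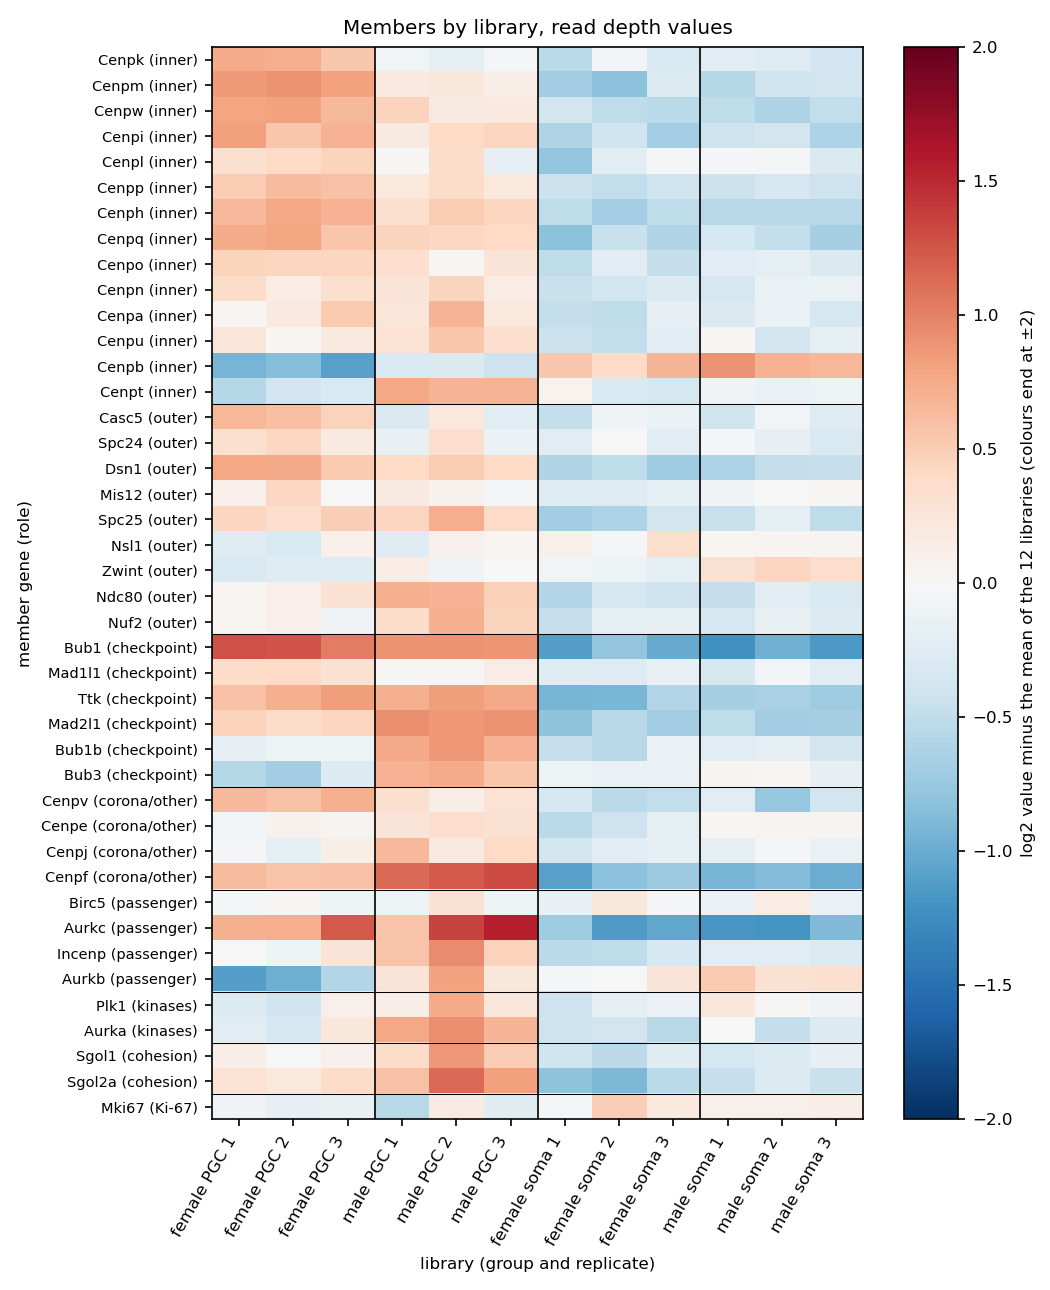
Deposited read depth values (log2) of the 42 members in each of the 12 libraries, each gene centred on its mean over the libraries, with colours ending at ±2 and rows grouped by role. PGC columns are above the mean for most rows, Cenpb is below it in all 6 PGC libraries, and Bub3 and Cenpt are above it in male PGCs and below it in female PGCs.

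The first comparison asked how these genes stood in germ cells relative to the surrounding soma at equal sequencing depth. Most were higher in PGCs. Averaging the female and male changes, 34 of 42 rose, 4 fell and 4 did not pass limma's test at an adjusted p of 0.05 (Benjamini-Hochberg over all genes). The 34 include Aurkc, whose rise was fixed by its listing, as described below. Among all genes 41.4% of genes rose and 45.3% fell. The median change of the members was 0.64 on the log2 read depth scale, against -0.04 over all genes. For 27 members every PGC library was above the soma libraries of its sex on that scale, and for 2, Cenpb and Zwint, every one was below (29.6% and 34.1% of all genes). The deposited read depth values compress changes: among the 38 called members, the change in the recovered reads (limma's voom) was 1.28 times as large at the median, and all 38 were called in the same direction.

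Checkpoint genes held some of the largest differences. Bub1, the kinase that seeds the checkpoint and marks inner centromeres (ENSMUSG00000027379, chr2:127801122-127831865, minus strand, GRCm38), had 483, 468 and 391 CPM in female PGCs and 316, 315 and 314 CPM in male PGCs, against 60.8, 81.5 and 65.2 CPM in female soma and 52.9, 67.2 and 57.5 CPM in male soma. Every PGC library lay far above every soma library, and Bub1 had the largest change on this scale, 2.07 ± 0.07 (limma adjusted p = 1.46e-12). Ttk, the kinase at the head of the checkpoint (ENSMUSG00000038379, chr9:83834689-83872389, plus strand), had 117, 128 and 147 CPM in female PGCs and 116, 130.1 and 124 CPM in male PGCs, against 29.1, 30.1 and 40.1 CPM in female soma and 36.6, 37.0 and 35.9 CPM in male soma. The PGC and soma libraries did not overlap, the sexes did within each cell type, and the change was 1.48 ± 0.07 (adjusted p = 4.77e-11). Mad2l1, which encodes the MAD2 inhibitor (ENSMUSG00000029910, chr6:66535390-66547220, plus strand), had 135, 123 and 134 CPM in female PGCs and 183, 173 and 180.4 CPM in male PGCs, against 43.1, 55.2 and 47.2 CPM in female soma and 55.6, 46.7 and 49.1 CPM in male soma. Its groups were again apart, with a change of 1.31 ± 0.05 (adjusted p = 1.65e-11).

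The other checkpoint genes moved less. Bub1b had 124, 131 and 131 CPM in female PGCs and 249.6, 273 and 238 CPM in male PGCs, against 94.2, 87.9 and 126 CPM in female soma and 113, 117 and 103 CPM in male soma. Its male PGC libraries were the highest, its female PGC libraries stood only slightly above most soma libraries, and the mean change was 0.65 ± 0.07 (adjusted p = 4e-07). Mad1l1, which carries MAD2 to the kinetochore, changed by 0.42 ± 0.06 (adjusted p = 9.38e-06). Bub3 had 60.2, 52.5 and 79.2 CPM in female PGCs and 167, 173 and 148 CPM in male PGCs, against 91.5, 90.2 and 88.2 CPM in female soma and 102, 99.3 and 86.1 CPM in male soma. Its mean change of 0.15 ± 0.07 did not pass the test (adjusted p = 0.0578), although with median centring it was called higher (0.38, adjusted p = 0.0001755). The female PGC libraries lay below all soma libraries and the male PGC libraries above them. In all, 5 of the 6 checkpoint genes rose and 0 fell.

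**Figure D2:**
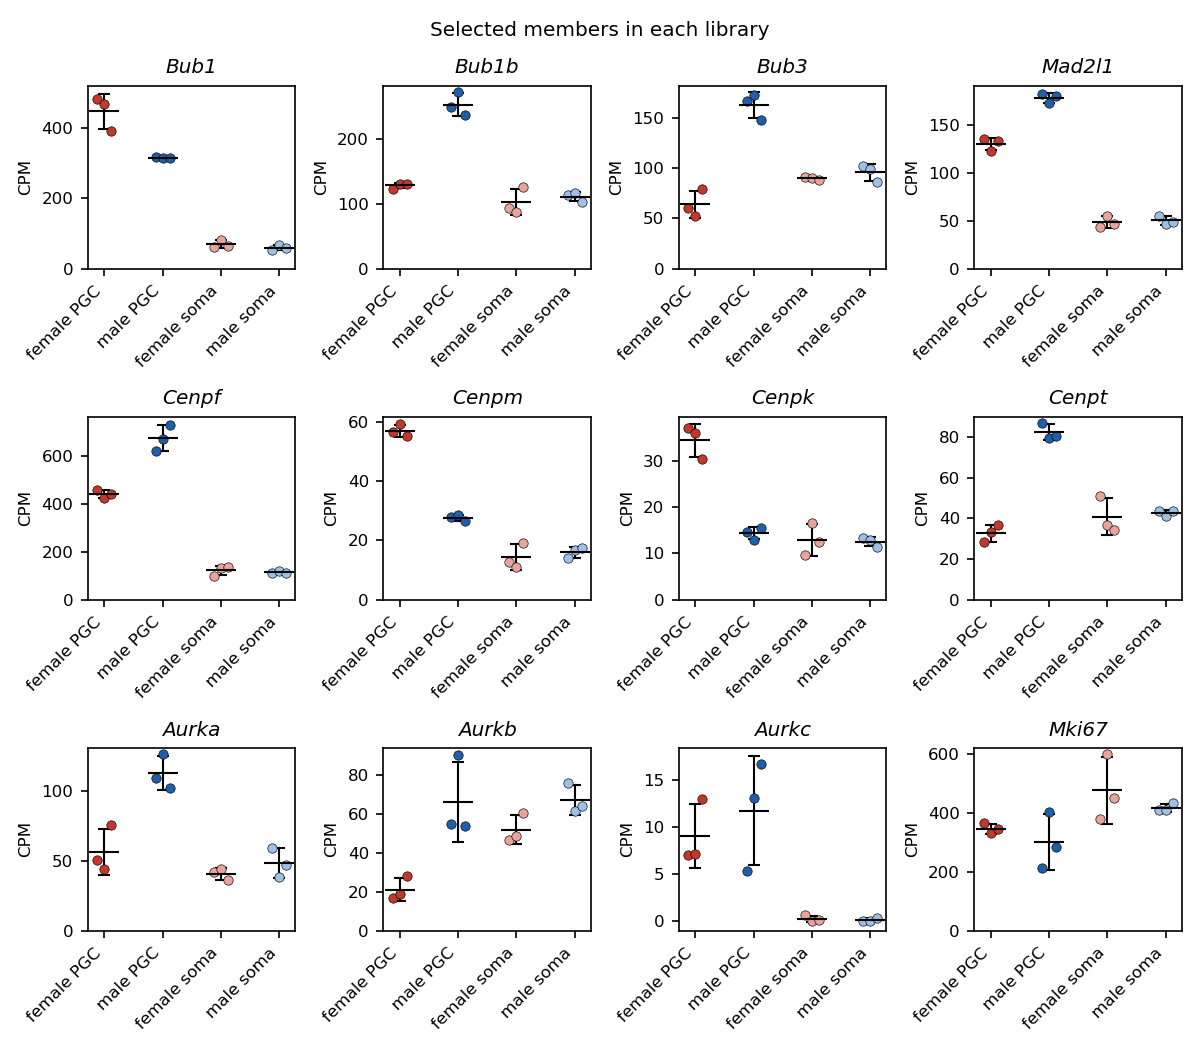
CPM of 12 members in each library, with female PGC, male PGC, female soma and male soma from left to right; points are libraries, and bars are the mean and SD of 3. Bub1, Mad2l1 and Cenpf are higher in both PGC groups, while Bub3, Cenpt, Aurka and Bub1b are higher in male PGCs than in female PGCs.

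Among the inner kinetochore genes 13 of 14 rose and 1 fell. Cenpa, the centromeric histone variant, had 100.3, 114 and 155 CPM in female PGCs and 108, 157 and 107 CPM in male PGCs, against 62.6, 61.5 and 82.1 CPM in female soma and 72.0, 83.7 and 70.5 CPM in male soma. Its change was 0.64 ± 0.10 (adjusted p = 3.19e-05), and the PGC groups overlapped each other. The largest rises were those of Cenph (1.12 ± 0.06), Cenpq (1.12 ± 0.08), Cenpm (1.04 ± 0.09), Cenpi (1.03 ± 0.08) and Cenpw (1.01 ± 0.08). The other rises ran from 0.29 ± 0.07 (Cenpt) to 0.84 ± 0.07 (Cenpp, 1.31 with voom) and took in Cenpk, Cenpl, Cenpn, Cenpo and Cenpu (0.55, 0.94 with voom). Cenph, Cenpi, Cenpk and Cenpm encode the subunits of a single subcomplex, Cenpq belongs with Cenpo, Cenpp and Cenpu in another, and Cenpw pairs with Cenpt. Cenpb, whose product binds a sequence motif in centromeric repeats (ENSMUSG00000068267, chr2:131175182-131180067, minus strand), went the other way, with 41.6, 44.3 and 36.1 CPM in female PGCs and 66.4, 67.8 and 61.1 CPM in male PGCs, against 155, 141 and 175 CPM in female soma and 207, 173 and 175 CPM in male soma. All 6 PGC libraries lay below all 6 soma libraries, and the change of -1.29 ± 0.06 (adjusted p = 1.08e-10) was the largest fall in the set. Cenpc1, which ties CENP-A nucleosomes to the outer kinetochore, changed by 0.43 ± 0.05 (adjusted p = 3.24e-06).

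In the outer kinetochore 7 of 9 genes rose and 1 fell. Dsn1, of the MIS12 complex, rose by 1.13 ± 0.06 and Spc25, of the NDC80 complex, by 0.94 ± 0.08. Ndc80, the microtubule-binding subunit, had 42.7, 44.5 and 55.2 CPM in female PGCs and 70.4, 69.6 and 57.7 CPM in male PGCs, against 23.2, 30.2 and 27.3 CPM in female soma and 25.3, 32.3 and 30.6 CPM in male soma. The PGC and soma libraries did not overlap, and the change was 0.77 ± 0.08 (adjusted p = 2.04e-07). Nuf2 rose by 0.53, Casc5 (the gene of KNL1) by 0.47, Spc24 by 0.32 and Mis12 by 0.25, and Nsl1 stood at -0.19 ± 0.09 (adjusted p = 0.0677). Nsl1 was called lower by voom (-0.35, adjusted p = 0.0172), with array weights (adjusted p = 0.0105) and with the replicate number as a block (adjusted p = 0.0472). Zwint, which links KNL1 to the corona, fell by 0.24 (SE 0.05, adjusted p = 0.000296, -0.38 with voom). It had 134, 141 and 143 CPM in female PGCs and 181, 149 and 159.6 CPM in male PGCs, against 167, 163 and 146 CPM in female soma and 223, 252 and 239.7 CPM in male soma. In CPM its male PGC and female soma libraries overlapped, and with median centring it stood at -0.02 and was not called.

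Cenpf, a large corona protein (ENSMUSG00000026605, chr1:189640606-189688086, minus strand), had 456, 426 and 439 CPM in female PGCs and 621, 671 and 730.3 CPM in male PGCs, against 100.2, 129.8 and 137 CPM in female soma and 113, 119 and 109 CPM in male soma. Both PGC groups lay above all soma libraries, male PGCs highest, with a change of 1.81 ± 0.06 (adjusted p = 1.6e-12). Cenpe, the kinesin of the corona, rose by 0.33 ± 0.06, Cenpv by 0.90 ± 0.09 and Cenpj by 0.37 ± 0.09. The product of Cenpj acts in centriole duplication rather than at the kinetochore. The shugoshin genes rose as well. Sgol1 had 44.4, 38.6 and 42.6 CPM in female PGCs and 49.8, 78.5 and 57.6 CPM in male PGCs, against 26.8, 23.9 and 31.0 CPM in female soma and 27.2, 29.4 and 33.8 CPM in male soma. Sgol2a, which protects cohesin in mouse meiosis, had 82.3, 76.2 and 89.5 CPM in female PGCs and 96.8, 156 and 121 CPM in male PGCs, against 29.9, 27.9 and 38.0 CPM in female soma and 40.4, 48.5 and 42.5 CPM in male soma. In both genes all PGC libraries were above all soma libraries, by 0.65 ± 0.09 for Sgol1 and 1.14 ± 0.09 for Sgol2a.

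The kinases and the passenger complex did not move as a group. Aurkc, an Aurora kinase used in meiosis, had 158, 46 and 136 reads in female PGC replicates 1 to 3 and 112, 320 and 295 in those of male PGCs, against 6, 0 and 1 in female soma and 0, 0 and 7 in male soma. It averaged 9.07 ± 3.41 CPM in female PGCs and 11.7 ± 5.78 CPM in male PGCs, and was at or near 0 in soma. Every gene in the tables reached at least 5.07 CPM in 3 libraries, so Aurkc could be listed only through its PGC libraries and had to differ. It is included in the counts of members higher in PGCs than in soma, at equal depth and per cell, and is no evidence there. Its fitted change depends on how values near 0 are treated: 2.05 ± 0.16 on the read depth scale and 6.17 with voom. Aurkb, the mitotic Aurora of the passenger complex, had 16.7, 18.6 and 27.8 CPM in female PGCs and 54.6, 90.1 and 53.9 CPM in male PGCs, against 46.8, 48.6 and 60.3 CPM in female soma and 75.7, 61.5 and 64.0 CPM in male soma. Its female PGC libraries lay below all others while its male PGC libraries overlapped the soma, and the mean change was -0.46 ± 0.11 (adjusted p = 0.00171), which was -0.70 with voom and -0.23 with median centring (adjusted p = 0.0690).

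Birc5, which encodes survivin, had 66.0, 68.0 and 62.3 CPM in female PGCs and 55.0, 79.6 and 56.3 CPM in male PGCs, against 58.7, 83.9 and 64.2 CPM in female soma and 58.9, 74.2 and 59.3 CPM in male soma. All 4 groups overlapped, and its change of 0.01 ± 0.09 did not pass the test (adjusted p = 0.884). With median centring Birc5 was called higher in PGCs (0.24, adjusted p = 0.0171). Incenp, the scaffold of the complex, had 146, 135 and 186 CPM in female PGCs and 217, 300.5 and 200.4 CPM in male PGCs, against 91.9, 95.0 and 108 CPM in female soma and 117, 119.6 and 115 CPM in male soma. It rose by 0.70 ± 0.08 with no overlap between PGCs and soma (adjusted p = 1.33e-06). Aurka, which matures the spindle poles, had 50.3, 44.2 and 75.5 CPM in female PGCs and 109.9, 127 and 102 CPM in male PGCs, against 41.9, 44.2 and 36.1 CPM in female soma and 59.5, 38.4 and 47.1 CPM in male soma. It changed by 0.69 ± 0.10 (adjusted p = 1.6e-05). In CPM the male PGC libraries stood above all others, while the female PGC and male soma libraries overlapped.

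Plk1, the Polo kinase of mitotic entry and exit, had 62.3, 55.5 and 89.0 CPM in female PGCs and 81.5, 139 and 88.8 CPM in male PGCs, against 54.9, 68.1 and 71.6 CPM in female soma and 95.3, 79.3 and 75.1 CPM in male soma. The groups overlapped and Plk1 did not pass the test (0.18 ± 0.11, adjusted p = 0.145). With median centring Plk1 was called higher in PGCs (0.40, adjusted p = 0.00389). Mki67 (Ki-67, the coat of mitotic chromosomes and a marker of cycling cells) had 365, 331 and 344 CPM in female PGCs and 214, 402 and 284 CPM in male PGCs, against 379, 601 and 450.0 CPM in female soma and 408, 411 and 434 CPM in male soma. It fell by 0.34 (SE 0.10, adjusted p = 0.00806) although the PGC and soma libraries overlapped, and with median centring it stood at -0.11 (adjusted p = 0.327). Male PGC replicate 2 was the highest male PGC library for Mki67, Plk1, Aurkb, Incenp, Sgol1 and Sgol2a.

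Levels between genes can be set side by side only per length, here as CPM per kilobase of merged exons. Merged exons take in all annotated transcripts of a gene, for example 8390 bases for Mad2l1 and 4354 for Bub1. Which transcripts were expressed was not measured, so orders between genes are approximate. On that scale Bub1 stood first of the 42 members in both PGC groups, at 102.7 ± 11.3 in female PGCs and 72.3 ± 0.265 in male PGCs (SD, n = 3 each). In female PGCs Cenph (36.8), Incenp (36.0), Cenpm (35.3) and Mki67 (34.5) came next, and in male PGCs Bub1b (59.3), Incenp (55.3), Plk1 (46.9) and Aurka (44.6). In soma the order was led by Mki67 (47.4 in female soma and 41.5 in male soma), Zwint (35.8 and 53.7) and Cenpb (32.1 and 37.9).

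Within each sex the same comparison used separate libraries. In females 32 of 42 members were higher in PGCs and 4 were lower (38.7% and 42.3% of all genes), with a median of 0.62 against -0.05. In males 30 rose and 2 fell (39.1% and 43.7% of all genes), with a median of 0.67 against -0.06. In females 31 members lay wholly above soma and 5 wholly below (39.1% and 42.7% of all genes), and in males 31 and 2 (40.3% and 44.7%). In both sexes, 27 members were higher and 1, Cenpb, was lower. In females Cenpm followed Bub1, Aurkc (listed only through its PGC libraries), Ttk and Cenpf among the largest rises. The female calls of Aurka (0.33), Bub1b (0.27), Nuf2 (0.30) and Mki67 (-0.35) ended in 6, 3, 2 and 9 of the 12 fits that each left out 1 library, with adjusted p up to 0.248 for Aurka (without female PGC replicate 3), 0.0962 for Bub1b (without female soma replicate 2), 0.0891 for Nuf2 (without female soma replicate 1) and 0.197 for Mki67 (without female soma replicate 2). The call of Aurka also ended with array weights (adjusted p = 0.0633), the replicate number as a block (0.0597) and voom (0.0613), that of Mki67 with median centring (0.374), array weights (0.116) and voom (0.0559), and that of Bub1b with quantile normalization (0.174).

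Per cell, nearly the whole set was higher in PGCs. On the spike-in scale, 41 of 42 members rose and 0 fell when the changes of both sexes were averaged, against 74.3% and 16.5% of all genes. The median change of the members was 2.85, against 1.89 over all genes, so the table as a whole moved the same way. Bub1 had 10.01, 9.72 and 9.56 in female PGCs and 9.41, 9.35 and 9.31 in male PGCs, against 4.41, 4.70 and 4.80 in female soma and 4.87, 5.18 and 5.90 in male soma, on the log2 per cell scale. That is a change of 4.58 ± 0.20, a 24.0-fold difference. Cenpf changed by 4.24 ± 0.20, Ttk by 3.90 ± 0.21 and Mad2l1 by 3.66 ± 0.20, while Mki67 changed by 1.55 ± 0.20 and Aurkb by 1.33 ± 0.22. Cenpb was the exception, with 6.47, 6.32 and 6.13 in female PGCs and 7.16, 7.14 and 6.96 in male PGCs, against 5.76, 5.49 and 6.22 in female soma and 6.83, 6.55 and 7.51 in male soma. Its PGC and soma values overlapped (0.30 ± 0.20, adjusted p = 0.143).

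Nsl1, Zwint, Mki67, Aurkb and Cenpb lay below the median change of all genes, and the other 37 members above it. In females 41 members rose and 0 fell per cell (77.2% and 11.5% of all genes), and in males 41 and 0 (64.0% and 19.8%). Male soma replicate 3 stood apart from its group: its median gene was at 5.25 on the log2 per cell scale, against 4.33 and 4.29 in replicates 1 and 2. Without it the same 3 comparisons gave 41 or 42 members higher and 0 lower. Median centring, which removes the global shift, left 37 members higher and 2 lower in the average of the sexes, and 6200 higher and 5054 lower among all genes in place of 9541 and 2115. An error in the scaling of a library enters all its genes alike, so the members are not separate evidence of the shift.

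**Figure D3:**
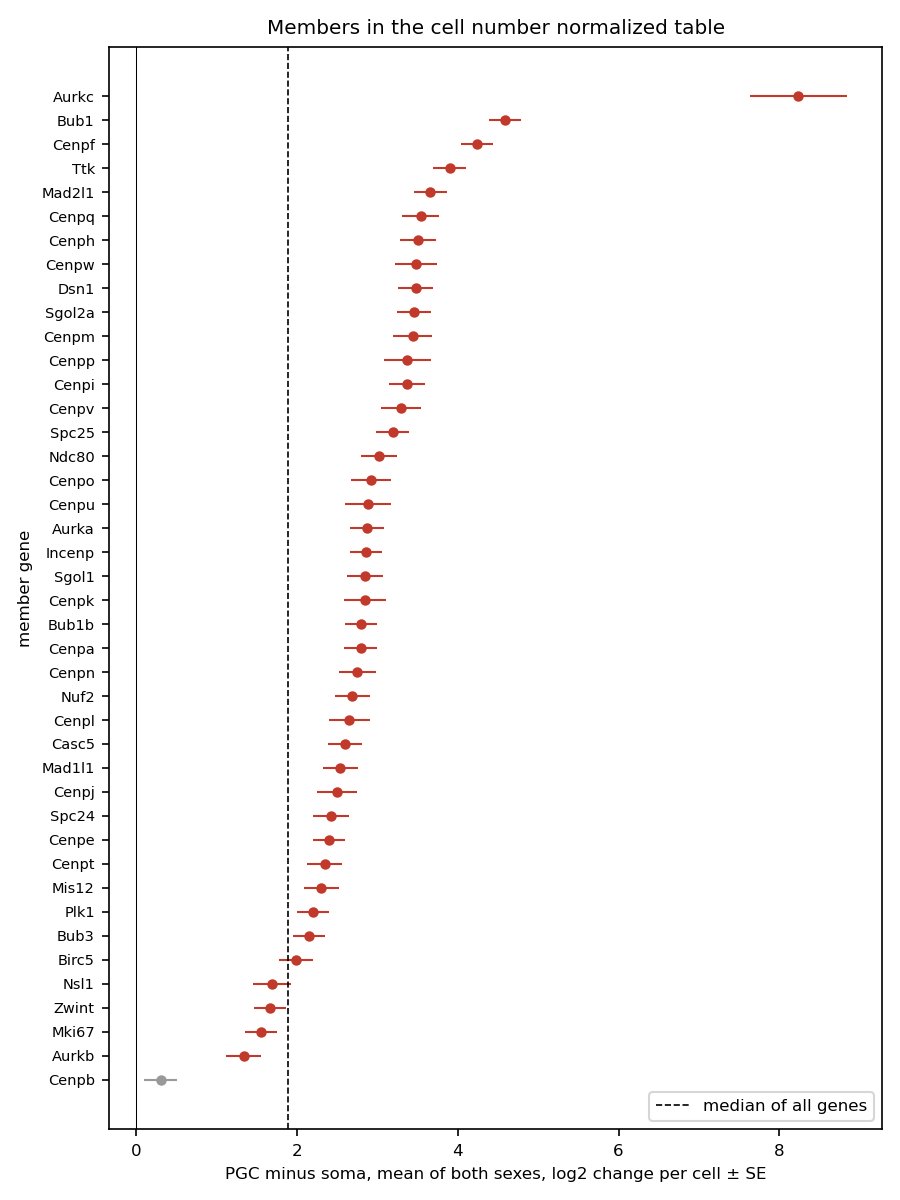
Change per cell between PGCs and soma (log2, mean of both sexes, ± SE from limma) for the 42 members in order of size, with the median of all genes as a dashed line; the grey point did not pass the test. Cenpb is lowest at 0.30, 5 members lie left of the line at 1.89, and Aurkc, with almost no soma reads, is farthest right.

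The second comparison set female PGCs against male PGCs, and it split the members in both directions, as it did all genes. At equal read depth 12 of 42 were higher in female PGCs, 17 were lower and 13 did not pass the test, against 32.8% higher and 32.5% lower among all genes. The median change was -0.10, against 0.01 over all genes. In 13 members every female PGC library was above every male PGC library, and in 18 every one was below (35.4% and 34.7% of all genes). For the 12 higher members voom gave larger changes, 0.48 (Dsn1) to 1.29 (Cenpk) in place of 0.25 to 0.76, each more than 1.5 times the read depth value. Voom also moved all genes this way: their median was 0.18 in place of 0.01, and 5025 were higher and 3488 lower in place of 4212 and 4169. By voom 15 members were higher and 17 lower. By role, 7 of 14 inner kinetochore genes were higher and 2 lower. Of 9 outer kinetochore genes 2 were higher and 3 lower, and of 6 checkpoint genes 2 and 3. Of 4 corona and other Cenp-named genes 1 was higher and 3 were lower. Of 4 passenger genes 0 were higher and 2 lower, of 2 mitotic kinases 0 and 2, and of 2 shugoshins 0 and 2.

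**Figure D4:**
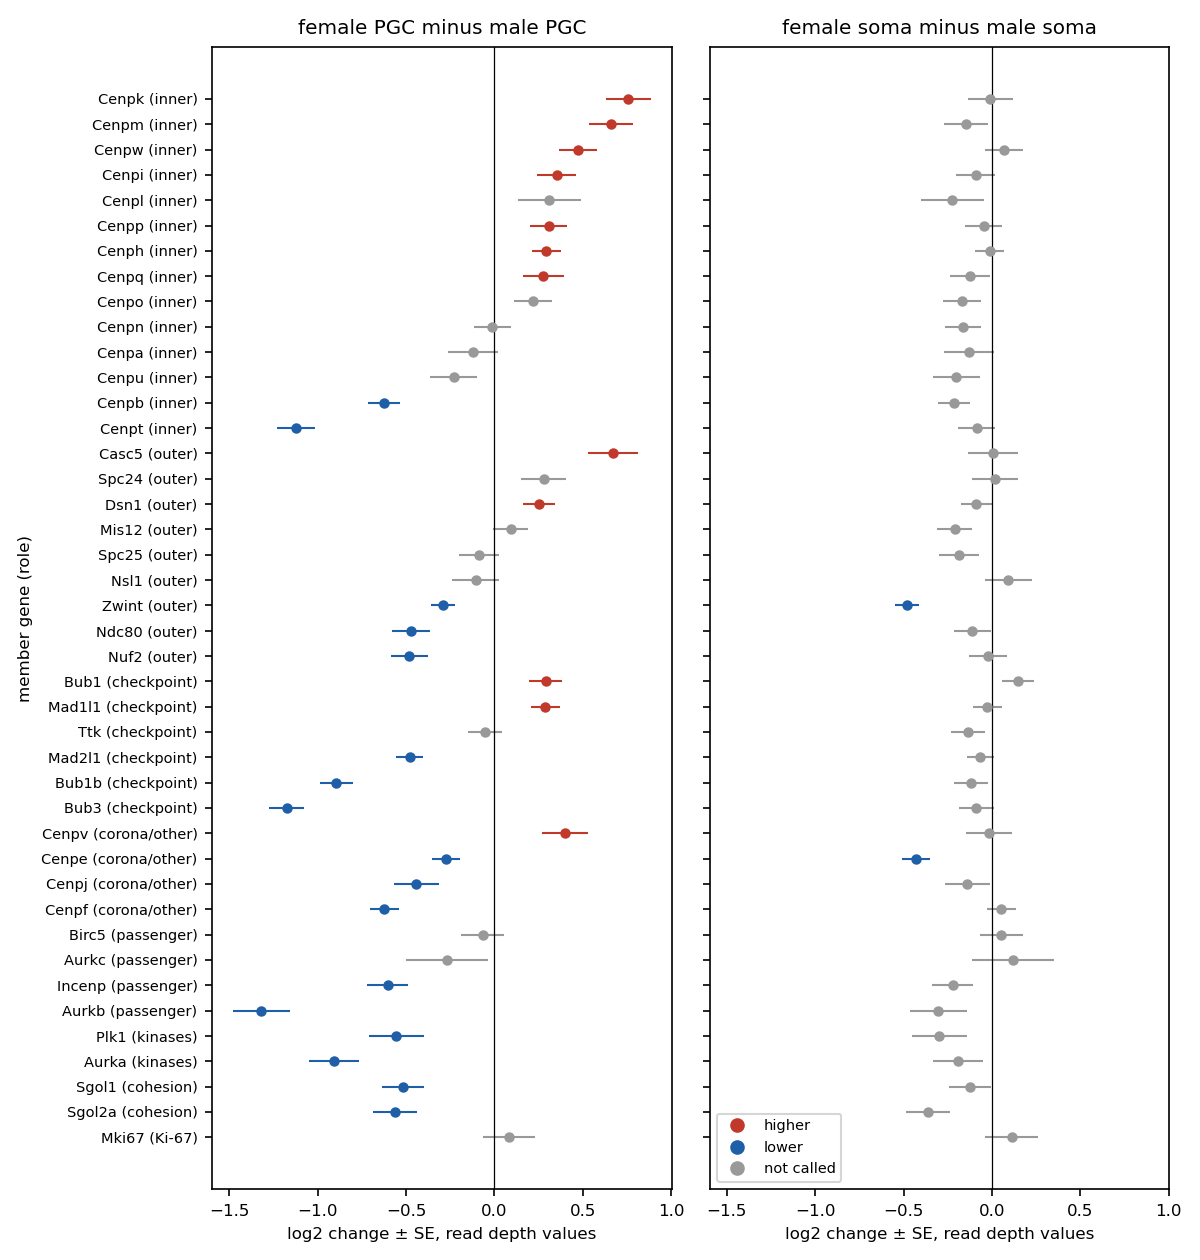
Log2 change on the read depth scale ± SE from limma for each member, female PGC minus male PGC on the left and female soma minus male soma on the right, grouped by role; red passed the test as higher, blue as lower, grey did not. In germ cells the changes run from -1.32 (Aurkb) to 0.76 (Cenpk), and in soma from -0.48 (Zwint) to 0.15 (Bub1).

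The checkpoint genes parted. Bub1 was higher in female PGCs: its 3 female PGC libraries (483, 468 and 391 CPM) were all above the 3 male PGC libraries (316, 315 and 314 CPM). The change was 0.29 ± 0.09 (limma adjusted p = 0.013), which was 0.51 with voom and lost the call without female PGC replicate 1 or 2 (adjusted p = 0.0607 and 0.0521). Mad1l1 was higher by 0.29 ± 0.08. Bub3, the partner of both BUB1 and BUBR1 (ENSMUSG00000066979, chr7:131560222-131571895, plus strand), went the other way, with 60.2, 52.5 and 79.2 CPM in female PGCs, against 167, 173 and 148 CPM in male PGCs. The groups were apart by a wide gap, at -1.18 ± 0.10 (adjusted p = 2.32e-07). Bub1b had 124, 131 and 131 CPM in female PGCs, against 249.6, 273 and 238 CPM in male PGCs, a change of -0.89 ± 0.10 (adjusted p = 2.08e-06). Mad2l1 had 135, 123 and 134 CPM in female PGCs, against 183, 173 and 180.4 CPM in male PGCs, a change of -0.48 ± 0.08 (adjusted p = 7.91e-05). Bub1b and Mad2l1 did not overlap between the sexes either, whereas Ttk did (-0.05 ± 0.09, adjusted p = 0.64).

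Genes of the inner kinetochore also went both ways. Cenpk (ENSMUSG00000021714, chr13:104228611-104252392, plus strand) had 37.0, 35.9 and 30.3 CPM in female PGCs and 14.7, 13.0 and 15.4 CPM in male PGCs, against 9.56, 16.6 and 12.5 CPM in female soma and 13.3, 12.8 and 11.4 CPM in male soma. The female libraries were all above the male ones, the change was 0.76 ± 0.13 (adjusted p = 0.000126, 1.29 with voom), and the male PGC values lay close to those of soma. Cenpm had 56.7, 59.2 and 55.1 CPM in female PGCs and 27.8, 28.6 and 26.4 CPM in male PGCs, against 12.6, 11.0 and 19.2 CPM in female soma and 13.9, 16.6 and 17.5 CPM in male soma, a change of 0.66 ± 0.13 between female and male PGCs (adjusted p = 0.00037, 1.04 with voom). Cenpw had 39.2, 39.5 and 34.5 CPM in female PGCs, against 25.2, 19.3 and 20.0 CPM in male PGCs, a change of 0.47 ± 0.11 (adjusted p = 0.00145). Neither gene overlapped between the sexes. Cenpi was higher by 0.35, Cenpp by 0.31, Cenph by 0.29 and Cenpq by 0.28.

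Cenpt (ENSMUSG00000036672, chr8:105844673-105853278, minus strand), which recruits the NDC80 complex and pairs with Cenpw, had 28.2, 33.0 and 36.4 CPM in female PGCs and 86.8, 79.6 and 80.6 CPM in male PGCs, against 51.1, 36.7 and 34.3 CPM in female soma and 43.4, 41.3 and 43.4 CPM in male soma. Its female PGC libraries were below all others except for an overlap with female soma, and lay below male PGCs by 1.12 on the log2 scale (SE 0.11, adjusted p = 6.43e-07). Cenpb was also lower, with 41.6, 44.3 and 36.1 CPM in female PGCs, against 66.4, 67.8 and 61.1 CPM in male PGCs and a change of -0.62 ± 0.09 (adjusted p = 3.22e-05). Cenpc1, outside the set, had 54.2, 51.4 and 53.2 CPM in female PGCs, against 98.7, 97.6 and 96.4 CPM in male PGCs (-0.79 ± 0.08, adjusted p = 7.97e-07). Cenpt and Cenpc1, whose products are the inner kinetochore's tethers for the outer plate, were both lower in female PGCs. Cenpa did not pass the test (-0.12 ± 0.14, adjusted p = 0.47), nor did Cenpl, Cenpn, Cenpo and Cenpu. Voom called Cenpo (0.48, adjusted p = 0.00328) and Cenpl (0.55, adjusted p = 0.0226) higher in female PGCs.

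In the outer kinetochore, Casc5 (ENSMUSG00000027326, chr2:119047119-119105501, plus strand) had 90.2, 85.2 and 75.8 CPM in female PGCs and 34.0, 54.0 and 36.9 CPM in male PGCs, against 31.5, 46.6 and 43.0 CPM in female soma and 32.9, 46.0 and 38.6 CPM in male soma. The female PGC libraries were above all others, and the change between female and male PGCs was 0.67 ± 0.14 (adjusted p = 0.000818, 1.03 with voom). Dsn1 was higher by 0.25 ± 0.09. Both long arms of the NDC80 complex were lower: Ndc80 by 0.47 (SE 0.11, adjusted p = 0.00143) and Nuf2 by 0.48 (SE 0.11, adjusted p = 0.00123). Its short arms did not pass the test, with Spc24 at 0.28 ± 0.13 and Spc25 at -0.09 ± 0.11, although Spc24 was called higher by voom (0.51, adjusted p = 0.0114), with array weights (adjusted p = 0.00392) and with the replicate number as a block (adjusted p = 0.0420). Zwint was lower by 0.29 (SE 0.07, adjusted p = 0.0019), and Mis12 and Nsl1 were not called.

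Aurkb (ENSMUSG00000020897, chr11:69045647-69051664, plus strand) had 16.7, 18.6 and 27.8 CPM in female PGCs, against 54.6, 90.1 and 53.9 CPM in male PGCs, the largest fall in female PGCs among the members (-1.32 ± 0.16, adjusted p = 7.09e-06). The highest female library was below the lowest male library by a wide margin. Incenp was lower by 0.60 (SE 0.11) and Aurkc stood at -0.27 ± 0.23 (adjusted p = 0.326). Birc5 did not pass the test (-0.07 ± 0.12, adjusted p = 0.661), so 2 of the 4 passenger genes were lower and 2 were not called. Aurka had 50.3, 44.2 and 75.5 CPM in female PGCs, against 109.9, 127 and 102 CPM in male PGCs, a change of -0.91 ± 0.14 (adjusted p = 7.37e-05). Plk1 was lower by 0.55 (SE 0.16, adjusted p = 0.00703), Sgol1 by 0.52 (SE 0.12) and Sgol2a by 0.56 (SE 0.13). Cenpf, with 456, 426 and 439 CPM in female PGCs, against 621, 671 and 730.3 CPM in male PGCs, was lower by 0.62 (SE 0.08, adjusted p = 1.39e-05), and Cenpj and Cenpe by 0.44 and 0.27. Cenpv, with 37.5, 35.3 and 40.3 CPM in female PGCs, against 24.5, 20.3 and 24.2 CPM in male PGCs, was higher by 0.40 ± 0.13, and Mki67 did not pass the test (0.08 ± 0.15, adjusted p = 0.639).

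Sertoli markers (all 4 measured), which are genes of supporting cells of the fetal testis, moved with the sex of the PGCs. They summed to 0.191 to 1.08 CPM in female PGCs and 38.6 to 94.1 CPM in male PGCs, against 534.7 to 652.6 CPM in male soma. General markers of gonadal soma (all 6 measured) did not separate the PGC groups. Those summed to 4.97 to 34.7 CPM in female PGCs and 17.0 to 30.9 CPM in male PGCs. In soma the same markers reached 872 to 1407 CPM in females and 2376 to 2413 CPM in males. Of the 17 members lower in female PGCs, the male soma libraries lay wholly below the male PGC libraries in CPM for 13, among them Bub3, Bub1b, Cenpt and Aurka. They overlapped for Aurkb and Plk1, and male soma lay wholly above male PGCs for Cenpb and Zwint. Of the 12 members higher in female PGCs, male soma lay wholly below male PGCs for 10 and overlapped for 2, Casc5 and Cenpk. Among all genes male soma lay wholly below male PGCs for 40.3% and wholly above for 44.7%, on the read depth scale. The part of supporting cells in these differences was not tested. Male PGC replicate 2 was not decisive for these lower calls, since 17 or 18 members were lower when any library was left out. Without a library 8 to 12 members were higher. Calls of Bub1, Cenpi, Cenpp, Cenpq, Cenpv and Dsn1 ended in 2, 2, 3, 7, 1 and 4 of the 12 fits without a library. The adjusted p reached 0.0600 for Cenpi (without female PGC replicate 1), 0.0624 for Cenpp and 0.154 for Cenpq (both without female PGC replicate 2). It reached 0.0525 for Cenpv (without male PGC replicate 2) and 0.0965 for Dsn1 (without female PGC replicate 1). Quantile normalization also ended the calls of Cenpp, Cenpq, Cenpv, Cenpe and Zwint, and median centring that of Cenpq (adjusted p = 0.0697).

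Ratios between members within a library do not depend on how libraries are scaled, and those below were chosen after the values were seen, as a description. The size of a ratio depends on the merged exon lengths, so it is approximate, but the same lengths apply in every group. Per kilobase, Bub1 over Bub1b was 3.84, 3.51 and 2.92 in female PGCs, against 1.24, 1.13 and 1.30 in male PGCs. In female soma it averaged 0.684 ± 0.206 and in male soma 0.523 ± 0.0567 (SD, n = 3 each). On this measure Bub1 exceeded Bub1b only in the PGC libraries. Bub1 over Bub3 averaged 11.7 ± 3.35 in female PGCs and 3.13 ± 0.249 in male PGCs. In female soma Bub1 over Bub3 averaged 1.24 ± 0.196 and in male soma 0.998 ± 0.144. Cenpm over Cenpt averaged 4.00 ± 0.57 in female PGCs and 0.756 ± 0.047 in male PGCs, and Cenpk over Cenpt 0.751 ± 0.168 and 0.122 ± 0.0104. For Cenpm over Cenpt the female soma averaged 0.831 ± 0.377 and the male soma 0.846 ± 0.108. For Cenpk over Cenpt they averaged 0.233 ± 0.094 and 0.204 ± 0.0184. Casc5 over Ndc80 averaged 1.37 ± 0.291 in female PGCs and 0.481 ± 0.111 in male PGCs, and Birc5 over Aurkb 2.84 ± 0.793 and 0.848 ± 0.0731. Casc5 over Ndc80 was 1.13 ± 0.0900 in female soma and 1.01 ± 0.0632 in male soma. There the male PGC libraries lay below all soma libraries, and the female PGC libraries overlapped soma. Birc5 over Aurkb was 1.17 ± 0.294 in female soma and 0.840 ± 0.188 in male soma. Incenp over Aurkb was 5.96, 4.95 and 4.56 in female PGCs, against 2.71, 2.27 and 2.53 in male PGCs. It averaged 1.29 ± 0.0675 in female soma and 1.20 ± 0.137 in male soma. Pairs of direct partners differed among themselves. Cenpw over Cenpt averaged 1.02 ± 0.193 in female PGCs and 0.225 ± 0.0226 in male PGCs, and Spc24 over Ndc80 2.39 ± 0.515 and 1.18 ± 0.28. Cenpw over Cenpt was 0.235 ± 0.0259 in female soma and 0.200 ± 0.0103 in male soma. Spc24 over Ndc80 was 2.66 ± 0.231 in female soma and 2.39 ± 0.573 in male soma, so male PGCs were the lowest group. Nuf2 over Ndc80 averaged 1.12 ± 0.215 in female PGCs and 1.13 ± 0.195 in male PGCs, and Cenph over Cenpi 3.05 ± 0.531 and 3.19 ± 0.219. Nuf2 over Ndc80 was 1.45 ± 0.0662 in female soma and 1.34 ± 0.0619 in male soma. Cenph over Cenpi was 2.99 ± 0.681 in female soma and 2.73 ± 0.361 in male soma.

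Per cell, the comparison of female PGCs with male PGCs was less precise, and 3 members were higher, 8 lower and 31 not called (24.3% higher and 17.7% lower among all genes). Cenpk (1.16 ± 0.37), Cenpm (0.95 ± 0.34) and Casc5 (0.94 ± 0.30) were higher. Aurkb (-1.74 ± 0.31), Bub3 (-1.46 ± 0.28), Cenpt (-1.44 ± 0.31), Aurka, Bub1b, Cenpb, Cenpf and Incenp were lower. Male soma replicate 3 bears on these counts although it is in neither group, because all libraries share an estimate of the spread: without it 10 members were higher and 16 lower. Leaving out male PGC replicate 3 or female PGC replicate 1 left 1 higher, and leaving out male PGC replicate 1 or 2 or female PGC replicate 2 left 5 lower.

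Of the members with the letters TTTGAA in the promoter, 2 of 14 were higher in female PGCs and 6 were lower on the read depth scale. Of the 24 without, 10 were higher and 9 lower. Aurkb, Incenp, Nsl1 and Spc24 had no promoter entry and are in neither group. Cenpf, Ttk, Bub3 and Cenpw, whose promoters are printed above, lay at -0.62, -0.05, -1.18 and 0.47 in female relative to male PGCs. Among all genes the shares were 32.8% higher and 32.5% lower. Between PGCs and soma, 11 of the 14 with TTTGAA and 21 of the 24 without were higher, against 41.4% of all genes.

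Few of these genes passed the test between the sexes in soma. On the read depth scale 0 of 42 members were higher in female soma, 2 were lower and 40 did not pass the test, against 13.3% higher and 11.0% lower among all genes. The 2 were Zwint, with 167, 163 and 146 CPM in female soma, against 223, 252 and 239.7 CPM in male soma, and Cenpe, with 83.0, 93.7 and 113 CPM in female soma, against 135, 138 and 140.0 CPM in male soma. Neither overlapped between the sexes, at -0.48 ± 0.07 for Zwint (adjusted p = 0.000147) and -0.43 ± 0.08 for Cenpe (adjusted p = 0.00131). In 7 members all female soma libraries were below all male ones, and in 0 above (19.7% and 20.8% of all genes). Without female soma replicate 3, 7 members were called lower. By voom 0 were higher and 2 lower, and 0 and 4 passed an unadjusted p of 0.05. Erythroid markers were higher in female soma in every library, and their part was not tested.

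Per cell, the soma of the sexes differed across most of the table, and the members with it. There 0 of 42 were higher in female soma by limma, 40 were lower and 2, Aurkc and Cenpw, were not called, against 2.86% higher and 63.6% lower among all genes. The median of the members was -1.03 on the log2 per cell scale, against -0.86 over all genes. By voom 0 were higher and 38 lower, and 0 and 41 passed an unadjusted p of 0.05. Zwint (-1.48 ± 0.28) and Cenpe (-1.42 ± 0.28), which were also lower at equal depth, were the lowest. Without male soma replicate 3, which stood apart from its group on this scale, 34 members were lower, and without female soma replicate 1, 28 were. With median centring 0 were higher and 2 lower.

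The difference between PGCs and soma was itself compared between the sexes, as the female change minus the male change. It was higher in females for 10 members and lower for 9 (27.9% and 28.9% of all genes), with a median of 0.04 against -0.01. The lower calls were Bub3, Cenpt, Aurkb, Bub1b, Aurka, Cenpf, Nuf2, Mad2l1 and Cenpb. Bub3 was below soma in female PGCs (-0.39 ± 0.10) and above it in male PGCs (0.69 ± 0.10), a difference of -1.09 ± 0.14 (adjusted p = 2.29e-05). With median centring its female change was -0.19 (adjusted p = 0.0946), which did not pass the test. Cenpt stood at -0.23 ± 0.11 in female PGCs, which passed the test by voom (-0.37, adjusted p = 0.0397) but not on the deposited read depth values, and was above soma in male PGCs (0.81 ± 0.11), a difference of -1.04 ± 0.15 (adjusted p = 5.88e-05). Aurkb was below soma in female PGCs (-0.97 ± 0.16) and not called in male PGCs (0.05 ± 0.16), a difference of -1.02 ± 0.23 (adjusted p = 0.00181).

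The higher calls were Cenpm (0.81 ± 0.18), Cenpk (0.77 ± 0.18), Casc5 (0.66 ± 0.20), Cenpi, Cenpw, Cenpq, Cenpo, Dsn1, Mad1l1 and Cenph. Cenpm rose over soma by 1.44 ± 0.13 in females and 0.63 ± 0.13 in males, and Cenpk by 0.97 ± 0.13 in females while standing at 0.20 ± 0.13 in males. Cenpi, which had 77.6, 60.7 and 69.9 CPM in female PGCs and 38.8, 47.7 and 49.7 CPM in male PGCs, against 20.2, 25.3 and 18.6 CPM in female soma and 23.7, 24.97 and 20.0 CPM in male soma, rose over soma by 1.25 ± 0.11 in females and 0.80 ± 0.11 in males. Cenpq had 57.2, 59.5 and 48.3 CPM in female PGCs and 38.8, 38.0 and 37.9 CPM in male PGCs, against 12.2, 18.6 and 15.4 CPM in female soma and 19.3, 17.3 and 14.6 CPM in male soma, and rose by 1.32 ± 0.12 in females and 0.92 ± 0.12 in males. In both genes all PGC libraries were above all soma libraries. Of the 10, only Cenpm, Cenpk and Casc5 kept the call whichever library was left out. The other 7 each lost it in 6 to 9 of the 12 such fits, with counts of higher calls between 4 and 9, and the count was 4 without female PGC replicate 1 or 2, 5 without any male soma library or without female soma replicate 1, and 6 without male PGC replicate 1 or 3. Median centring gave 4 higher and 12 lower, and quantile normalization 6 and 9. The 9 lower calls were kept whichever library was left out, but that of Nuf2 ended with array weights (-0.29, adjusted p = 0.0517) and with voom (-0.45, adjusted p = 0.0910). With the replicate number as a block Cenph, Cenpo and Cenpq lost theirs (adjusted p = 0.0588, 0.0606 and 0.0523).

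Per cell the same term was higher in females for 23 members and lower for 0 by limma, with 19 not called, against 42.8% higher and 5.16% lower among all genes. The median of the members was 0.99, against 0.91 over all genes, so the set moved as the table did. By voom, and at an unadjusted p of 0.05, 23 were also higher and 0 lower. Cenpk (2.05 ± 0.52), Cenpm (2.05 ± 0.48) and Casc5 (1.80 ± 0.43) were the highest, and Bub3 (-0.47 ± 0.40) and Aurkb (-0.47 ± 0.43), called lower at equal depth, did not pass the test. Without male soma replicate 3, 21 were higher and 2 lower, and without female soma replicate 1, 15 and 0. With median centring 4 were higher and 11 lower.

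**Figure D5:**
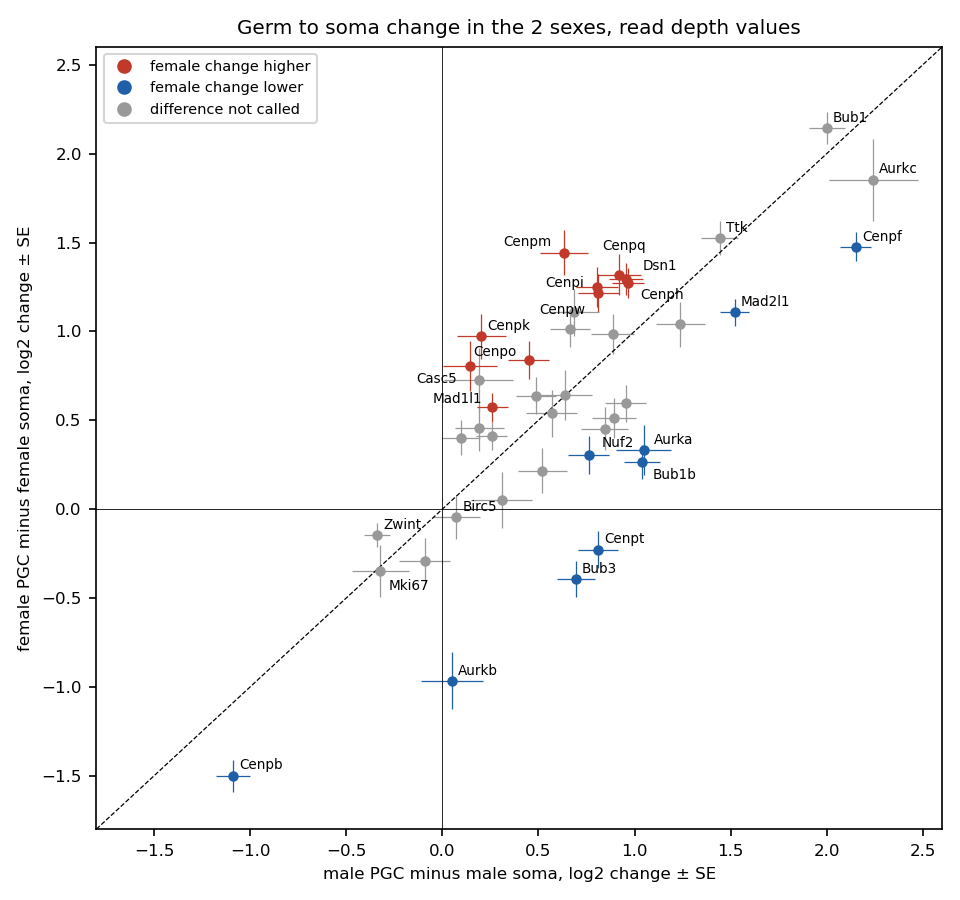
Change between PGCs and soma on the read depth scale (log2 ± SE from limma), males on the horizontal axis and females on the vertical axis, 1 point per member, with the line of equal change dashed; red and blue points passed the test of the difference between the sexes as higher or lower in females. Bub3, Cenpt and Aurkb lie farthest below the line, and Cenpm, Cenpk and Casc5 farthest above it among the called members.

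Related genes outside the set were counted in lists of the same pathway, chosen, like the set, with earlier results of these data known. Their counts are read against all genes, of which 41.4% were higher and 45.3% lower in PGCs than in soma, and 32.8% and 32.5% in female relative to male PGCs. Of 20 genes of the anaphase promoting complex with its activators, securin and separase, 15 were higher in PGCs than in soma and 3 lower, led by Espl1 (separase, 1.85 ± 0.04), Anapc15 (1.35 ± 0.09) and Cdc26 (-1.21 ± 0.09). In female relative to male PGCs 1 of the 20 was higher and 11 lower, with Cdc26 at -1.20 ± 0.12, the ubiquitin carrier Ube2c at -0.89 ± 0.14 and the activator Fzr1 at -0.85 ± 0.10. Of 7 genes that load CENP-A or partner the passenger complex, 6 were higher in PGCs than in soma and 1 lower. They included Oip5 (1.50 ± 0.14) and Cdca8 (borealin, 1.09 ± 0.07), and the lower gene was the CENP-A chaperone Hjurp (-1.22 ± 0.12).

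Of 16 other kinetochore and corona genes 12 were higher in PGCs than in soma and 2 lower, among them Kif18a (1.60 ± 0.08), Zwilch (1.52 ± 0.05) and Kntc1 (1.20 ± 0.07), with Ska2 at -1.45 ± 0.08. In female relative to male PGCs 6 were higher and 6 lower, with Clasp2 at 0.55 ± 0.10 and Clasp1 at -0.78 ± 0.11, genes of related microtubule-binding proteins. Of 15 genes of mitotic cohesin and its regulators 7 were higher in PGCs than in soma and 5 lower, with the acetyltransferase gene Esco2 at 2.64 ± 0.14 and Cdca5 (sororin) at 1.38 ± 0.07. In female relative to male PGCs Rad21 lay at -1.19 ± 0.10 and Cdca5 at -1.06 ± 0.10, with 6 higher and 4 lower in the list. Both of its counts lie near the shares among all genes.

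Of 12 genes of spindle assembly and cytokinesis 9 were higher in PGCs than in soma and 0 lower by limma (3 were not called), and in female relative to male PGCs 2 were higher and 6 lower. The 2 were the kinesins Kif23 (1.22 ± 0.13) and Kif4 (1.09 ± 0.08), while their midzone partner Prc1 lay at -0.80 ± 0.10 and Cdk1 at -0.78 ± 0.12. Of 16 regulators of the DREAM, MuvB and E2F families 5 were higher in PGCs than in soma and 6 lower, near the shares among all genes. Mybl2 (B-MYB), an activator through the CHR, lay at 2.08 ± 0.11 and Rbl2 (p130), a DREAM repressor subunit, at -1.83 ± 0.08. These were the highest and lowest changes of the list, whose median was -0.14. In female relative to male PGCs 4 of the 16 were higher and 7 lower. Mybl2 lay at -0.88 ± 0.15, Rbl2 at 0.53 ± 0.12, E2f2 at 1.18 ± 0.24 and E2f6 at -1.08 ± 0.12.

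Some members share exon sequence with a gene on the other strand: 35.0% of the exon bases of Sgol2a overlap Kctd18, 26.7% of Cenpu overlap Primpol, 19.0% of Cenpo overlap Adcy3 and 12.3% of Cenpp overlap Ippk. The library kit keeps strand, but no source used here gives the strand setting of the counting, so the values of these 4 genes are uncertain to that extent. Cenpt shares 8 exon bases with Tsnaxip1 and Cenpk 233 with Ppwd1. No exon overlap was found for Bub1, Bub1b, Bub3, Cenpf, Cenpm, Casc5, Aurka or Aurkb.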

How the data were processed

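RNA-seq of 12 libraries was analysed, 3 each of female PGC, male PGC, female soma and male soma. The deposited values are log2 expression of 12845 genes, normalized by the authors either per cell or to read depth. Per the submitters' processing notes the build was mm10, and the listed tools include Trim Galore 0.4.0, HTSeq 0.6.1p1, TopHat2 2.0.9, limma 3.28.14, edgeR 3.14.0 and DESeq2 1.12.3. The file name's CNN was read as cell number normalization. No source used here states the formula of the read depth values or how genes were filtered.

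Whole reads were recovered from the per cell values, which equal log2 of reads plus 0.5 over a library size. All values came out within 0.001 of a whole read, and CPM were computed from them. Libraries held 6454322 to 24791414 reads, and intervals and floors that rest on reads cover counting error only. Each table was fitted whole with limma 3.58.1 (R 4.3.3), with 4 group means, variances moderated along an intensity trend, and p-values adjusted over all genes by Benjamini-Hochberg. A gene was called at an adjusted p of 0.05, and errors beside changes are standard errors from limma. Voom on the recovered reads called 5071 genes higher and 6059 lower in PGCs at equal depth. The fit was tested on simulated data, and tables were made in pandas 2.3.3 (Python 3.11.15).

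The members and lists were chosen with earlier results of these data known. Values per library are given for up to 5 members that rose and 5 that fell most in each read depth comparison without overlap, and for 14 members fixed by name: Cenpa, Bub1, Bub1b, Mad2l1, Ndc80, Aurka, Aurkb, Aurkc, Birc5, Incenp, Plk1, Sgol1, Sgol2a and Mki67. Up to 4 genes are named from each other list and comparison. The alternatives were a log2 change of at least 1, no intensity trend, the lowest 25% of genes left out, median centring, array weights, the replicate number as a block, quantile normalization, voom, and each library left out. A comparison of Aurora kinase protein sequences was not made.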

Additional observations from a re-analysis of the deposited data

Results flagged for a closer look

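For 19 members the change between PGCs and soma differed between females and males by limma's interaction term on the read depth scale, given as the female change minus the male change. It was negative for Bub3 (-1.09), Cenpt (-1.04), Aurkb (-1.02), Bub1b (-0.77), Aurka (-0.72), Cenpf (-0.68), Nuf2 (-0.46), Mad2l1 (-0.41) and Cenpb (-0.41). It was positive for Cenpm (0.81), Cenpk (0.77), Casc5 (0.66), Cenpi (0.45), Cenpw (0.40), Cenpq (0.40), Cenpo (0.39), Dsn1 (0.34), Mad1l1 (0.31) and Cenph (0.31). Among all genes 27.9% were higher and 28.9% lower in that test, so 10 and 9 of 42 lie near the background. The groups of 3 libraries are too small for a test of single outlying libraries.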

How the results depend on the processing

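Counts of members are given as higher and lower. Shares of all genes under each setting are not set beside them in this section. The counts therefore show how the calls of members move with the setting, not how the members compare with all genes. Requiring a log2 change of at least 1 left 12 and 1 between PGCs and soma, 14 and 1 in females, 8 and 1 in males, 0 and 3 between female and male PGCs, 0 lower in female soma, 0 and 3 for the difference between the sexes, and 1 and 5 per cell between female and male PGCs, with 23 lower per cell in female soma. Median centring left 1 lower between PGCs and soma, 2 in females and 1 in males, 4 higher for the difference between the sexes, 2, 2 and 1 lower per cell in the same 3 comparisons of PGCs with soma, 9 and 17 per cell between female and male PGCs, 2 lower per cell in female soma, and 4 and 11 per cell for the difference between the sexes. Under it the per cell changes of Aurkb (-0.37), Mki67 (-0.16), Nsl1 (-0.0155) and Zwint (-0.0437) were negative, which follows from removing the shift of the median gene. It moved the median of all genes between PGCs and soma at equal read depth to 0.18, from -0.04, and voom moved it to -0.14. Array weights gave 6 lower in female soma, 16 higher for the difference between the sexes, 13 and 16 per cell between female and male PGCs, 1 higher per cell in female soma and 3 lower per cell for the difference between the sexes. Quantile normalization gave 6 higher for the difference between the sexes. Without the intensity trend 5 were lower per cell in female PGCs. The cause of these moves was not tested.

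With each library left out in turn, 2 to 7 members were lower in female soma, 4 to 9 were higher for the difference between the sexes, 1 to 10 were higher and 5 to 16 lower per cell in female PGCs, 28 to 41 were lower per cell in female soma, and 15 to 24 were higher and 0 to 2 lower per cell for the difference between the sexes. With the replicate number as a block, 34 rose and 5 fell between PGCs and soma, 31 and 5 in females, 30 and 3 in males, 12 and 17 between female and male PGCs, 0 and 2 in soma, and 8 and 9 for the difference between the sexes. Per cell the block gave 41 and 0 in each comparison of PGCs with soma 3 and 10 between female and male PGCs, 0 and 41 in soma, and 23 and 0 for the difference between the sexes. The block ended the calls of Aurka between female PGCs and female soma (adjusted p = 0.0597), of Cenpq between female and male PGCs (0.0514), and of Cenph, Cenpo and Cenpq for the difference between the sexes. Same-numbered libraries did not deviate together (correlations of -0.361 to 0.0715, with 0 of 18 over 0.1). These deviations are from means of only 3 libraries, so they cannot tell whether same-numbered libraries shared a litter or pool. The other settings kept each count within 1.5 times. The alternatives for the per cell comparison of the soma and of the difference between the sexes were added after seeing the data. Reads below 39 were met only in Aurkc, whose fitted change has no firm size.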
